A study of Mus musculus with 18 samples.

Results

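Vldlr, Lrp8, Dab1, Fyn, Src, Crk and Crkl are the receptors, the adaptor, the kinases and the docking proteins of the Reelin pathway, and their RNA was followed from dividing progenitors to neurons in the embryonic mouse cortex. They were chosen by name, as 7 of the 37620 annotated genes in the count tables, and all 7 passed the filter on low counts. The cells came from the lateral cortex of C57BL/6 embryos at embryonic day 14.5, and every group carried the same pair of reporters, one at Btg2 and one at Tubb3. PP are proliferating progenitors, labelled Btg2 negative. DP are differentiating progenitors, labelled Btg2 positive. Neuron libraries came from cells labelled Tubb3 positive. The sample titles call the Btg2 reporter RFP and the Tubb3 reporter GFP, whereas the genotype label writes GFP for both. Each group had 3 libraries, each made from a pool of sorted cells of several embryos from different litters, and each was sequenced in a single-read and a paired-end run whose counts were added.

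Reelin is a large secreted protein that Cajal-Retzius cells release near the surface of the developing cortex. It binds the lipoprotein receptors Vldlr and Lrp8 (also called ApoER2), which gather the adaptor Dab1 at their cytoplasmic tails. The Src family kinases Fyn and Src phosphorylate Dab1 on tyrosines, which then bind the adaptors Crk and Crkl and through them the Rap1 exchange factor Rapgef1, and phosphorylated Dab1 is removed by a Cul5 ubiquitin ligase. In mice, loss of Reelin, of Dab1 or of both receptors disturbs the layering of cortical neurons.

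All 7 genes lie on the plus strand in the mm9 annotation of the files. Vldlr spans chr19:27290974-27328721, Lrp8 chr4:107474866-107549445 and Dab1 chr4:103291964-104417449. Fyn spans chr10:39088661-39285187, Src chr2:157244180-157297598, Crk chr11:75492761-75520410 and Crkl chr16:17452080-17486348. No other annotated feature shares exonic bases with any of them. The 3 genes whose RNA changed most, Vldlr, Lrp8 and Dab1, are shown by the 250 bases before an annotated start, since Vldlr and Dab1 moved in the same direction at each step and Lrp8 did not. The letters come from RefSeq on GRCm38.p6, a later build than that of the files, and run 5′ to 3′ on the plus strand. Capitals mark CANNTG, the E-box that basic helix-loop-helix factors such as Neurog2 can bind; it reads the same on both strands. Every start in the RefSeq table is given, from upstream to downstream: 2 for Vldlr, 2 for Dab1 and 3 for Lrp8.
Vldlr, first start, chr19:27216234-27216483: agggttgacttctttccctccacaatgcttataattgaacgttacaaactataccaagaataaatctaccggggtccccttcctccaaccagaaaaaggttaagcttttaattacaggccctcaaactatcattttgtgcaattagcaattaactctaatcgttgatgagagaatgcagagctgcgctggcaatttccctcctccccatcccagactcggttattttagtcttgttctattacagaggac
Vldlr, second start, chr19:27216770-27217019: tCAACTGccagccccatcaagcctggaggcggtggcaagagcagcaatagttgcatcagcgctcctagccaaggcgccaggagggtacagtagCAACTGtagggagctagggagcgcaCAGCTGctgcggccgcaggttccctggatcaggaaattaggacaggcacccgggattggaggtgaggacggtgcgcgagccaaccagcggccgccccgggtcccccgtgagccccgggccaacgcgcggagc
Dab1, first start, chr4:103619250-103619499: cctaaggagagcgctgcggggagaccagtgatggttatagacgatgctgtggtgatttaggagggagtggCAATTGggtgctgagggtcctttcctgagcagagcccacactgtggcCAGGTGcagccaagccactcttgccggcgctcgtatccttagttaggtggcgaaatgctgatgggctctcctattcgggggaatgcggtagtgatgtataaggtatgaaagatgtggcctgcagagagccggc
Dab1, second start, chr4:104367288-104367537: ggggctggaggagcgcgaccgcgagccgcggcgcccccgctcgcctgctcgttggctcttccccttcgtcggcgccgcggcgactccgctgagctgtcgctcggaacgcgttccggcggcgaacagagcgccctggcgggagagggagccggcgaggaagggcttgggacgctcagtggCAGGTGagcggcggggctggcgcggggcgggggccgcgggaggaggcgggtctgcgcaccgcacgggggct
Lrp8, first start, chr4:107802635-107802884: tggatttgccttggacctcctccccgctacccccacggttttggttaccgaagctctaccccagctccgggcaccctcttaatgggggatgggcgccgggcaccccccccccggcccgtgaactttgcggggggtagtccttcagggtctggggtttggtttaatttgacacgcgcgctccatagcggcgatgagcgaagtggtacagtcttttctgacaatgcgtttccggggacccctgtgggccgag
Lrp8, second start, chr4:107822911-107823160: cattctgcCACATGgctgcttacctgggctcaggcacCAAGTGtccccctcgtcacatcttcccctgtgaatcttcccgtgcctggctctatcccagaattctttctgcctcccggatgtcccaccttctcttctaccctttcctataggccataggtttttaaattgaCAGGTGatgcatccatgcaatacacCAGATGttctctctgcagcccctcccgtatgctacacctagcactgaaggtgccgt
Lrp8, last start, chr4:107830703-107830952: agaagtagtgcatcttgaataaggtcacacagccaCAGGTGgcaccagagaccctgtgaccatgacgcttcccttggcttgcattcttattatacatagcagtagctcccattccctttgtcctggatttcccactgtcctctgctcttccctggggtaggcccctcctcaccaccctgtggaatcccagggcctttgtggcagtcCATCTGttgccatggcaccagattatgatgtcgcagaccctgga

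E-boxes numbered 0 and 3 in the Vldlr windows, 2 and 1 in the Dab1 windows and 0, 4 and 2 in the Lrp8 windows. All 7 windows but the first of Vldlr and the first of Lrp8 thus held an E-box. Of the 32851 RefSeq mouse windows of this length, 66.2% held at least 1 E-box. GTGTGA, a core of the sites that T-box factors such as Eomes and Tbr1 bind, was searched on both strands and can share letters with an E-box; it was in 1 of the 7 windows, the last of Lrp8, and is in 12.3% of all windows. GC content was 41.6% and 66.4% in the Vldlr windows, 56.4% and 78.0% in the Dab1 windows and 62.4%, 52.8% and 53.6% in the Lrp8 windows, against a median of 52.4%. The windows of the other genes, not printed, held 0 E-boxes for Crk, Fyn and Src and 1 for Crkl, and that of Fyn held GTGTGA. A match describes the letters and is no evidence of binding.

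The added counts summed to between 34337209 and 55935128 per library, and those of a single gene of the 7 lay between 876 (Vldlr in a DP library) and 46813 (Lrp8 in a DP library). Levels are given in CPM, the count of a gene scaled to the total of its library after TMM normalization. Btg2 RNA lay between 658 and 1156 CPM in DP libraries and between 403 and 523 CPM in PP libraries, and Tubb3 between 2090 and 2589 CPM in Neuron libraries and between 515 and 695 CPM in DP libraries, so the sort genes followed their labels in relative terms, while Btg2 RNA was not absent from PP. The summed level of 8 radial glia markers was 5403 to 6319 CPM in PP, 2494 to 3625 in DP and 298 to 380 in Neuron libraries. That of 6 intermediate progenitor markers was 766 to 898 CPM in PP, 2324 to 3307 in DP and 630 to 725 in Neuron libraries, and that of 8 neuron markers 348 to 482, 1610 to 2126 and 7781 to 8251 CPM in the same order. DP library L223 stood apart: its radial glia sum was 3625 CPM against 2543 and 2494 CPM in the other DP libraries, and its intermediate progenitor sum was the lowest of the 3. The libraries of neighbouring numbers, L222 and L224, also had the highest radial glia sum of PP and of Neuron, at 6319 and 380 CPM. The changes of Lrp8 and Dab1, for which L223 was the DP library nearest to PP, are therefore also given without it. For Vldlr, L223 was instead the DP library farthest from PP, at 20.6 CPM against 23.3 and 21.7 CPM. Markers of other cell types differed as well: 8 interneuron and ventral markers summed to 5.30 to 52.2 CPM in PP, 28.9 to 154.96 in DP and 427 to 459 in Neuron libraries. In the DP library with the highest sum, L223, Dlx1 and Dlx2 stood at 83.5 and 50.9 CPM, Gad2 at 13.4 and Gad1 at 0.66 CPM. The 8 red blood cell markers summed to 5362 to 10008, 12.3 to 78.3 and 5.97 to 9.08 CPM. Endothelial markers (7 of 8 tested) summed to 8.94 to 26.3, 9.09 to 10.9 and 2.97 to 5.36 CPM, pericyte markers (6) to 32.4 to 59.6, 8.73 to 13.6 and 2.70 to 3.19 CPM, and microglia markers (7 of 8 tested) to 9.14 to 12.03, 5.09 to 7.11 and 1.498 to 2.95 CPM. No tested marker was at 0 in a group, and the part of these cells in the results was not tested.

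The receptor Vldlr fell in DP and was highest in Neuron. In lineage order it stood at 44.9, 50.0 and 38.1 CPM in PP, at 20.6, 23.3 and 21.7 CPM in DP and at 131, 141 and 129 CPM in Neuron. Libraries are listed throughout by number, L222, L355, L393 for PP, L223, L356, L394 for DP and L224, L357, L395 for Neuron. The 3 groups did not overlap, and the DP libraries were the lowest of the 9. In DP the level was 2.03-fold lower than in PP (log2 fold change -1.02, SE 0.10, edgeR quasi-likelihood adjusted p = 9.67e-06, Benjamini-Hochberg over 18627 features). In Neuron it was 6.11-fold higher than in DP (log2 2.61, SE 0.10, adjusted p = 9.62e-10) and 3.02-fold higher than in PP (log2 1.59, SE 0.10, adjusted p = 2.32e-08). Since a sorted fraction is a bulk sample, fewer cells that make an RNA and less of it per cell cannot be told apart, here or for the other genes.

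The other receptor, Lrp8, had its highest level in DP. It stood at 268, 233 and 212 CPM in PP, at 727, 907 and 876 CPM in DP and at 671, 598 and 569 CPM in Neuron libraries. All DP libraries were above all Neuron libraries, though the gap between the lowest DP library, L223, and the highest Neuron library, L224, was narrower than the range within either group. In DP it was 3.52-fold higher than in PP (log2 1.82, SE 0.11, adjusted p = 5.02e-07). In Neuron it was 1.37-fold lower than in DP (log2 -0.45, SE 0.11, adjusted p = 0.00325) and 2.58-fold higher than in PP (log2 1.37, SE 0.11, adjusted p = 3.43e-07). Without L223 the log2 fold change of Neuron against DP was -0.53 (adjusted p = 0.00103) and that of DP against PP 1.92 (adjusted p = 3.78e-07). Over all 18 alternative fits, described below, these values of Lrp8 ranged from -0.60 to -0.39 and from 1.75 to 2.02.

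The adaptor Dab1 followed Vldlr in direction and not Lrp8. It stood at 176, 170 and 161 CPM in PP, at 102, 69.3 and 76.2 CPM in DP and at 415, 439 and 396 CPM in Neuron libraries. The groups did not overlap, and the DP libraries were again the lowest, with L223 above the other two. In DP it was 2.05-fold lower than in PP (log2 -1.03, SE 0.12, adjusted p = 4.48e-05). In Neuron it was 5.05-fold higher than in DP (log2 2.34, SE 0.13, adjusted p = 1.26e-08) and 2.47-fold higher than in PP (log2 1.30, SE 0.12, adjusted p = 1.17e-06). Without L223, the DP library with the highest radial glia sum, the log2 fold change of DP against PP was -1.20 (adjusted p = 1.11e-06) and that of Neuron against DP 2.52 (adjusted p = 1.73e-09). Over all 18 alternative fits these values of Dab1 ranged from -1.20 to -0.92 and from 2.22 to 2.53.

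**Figure D1:**
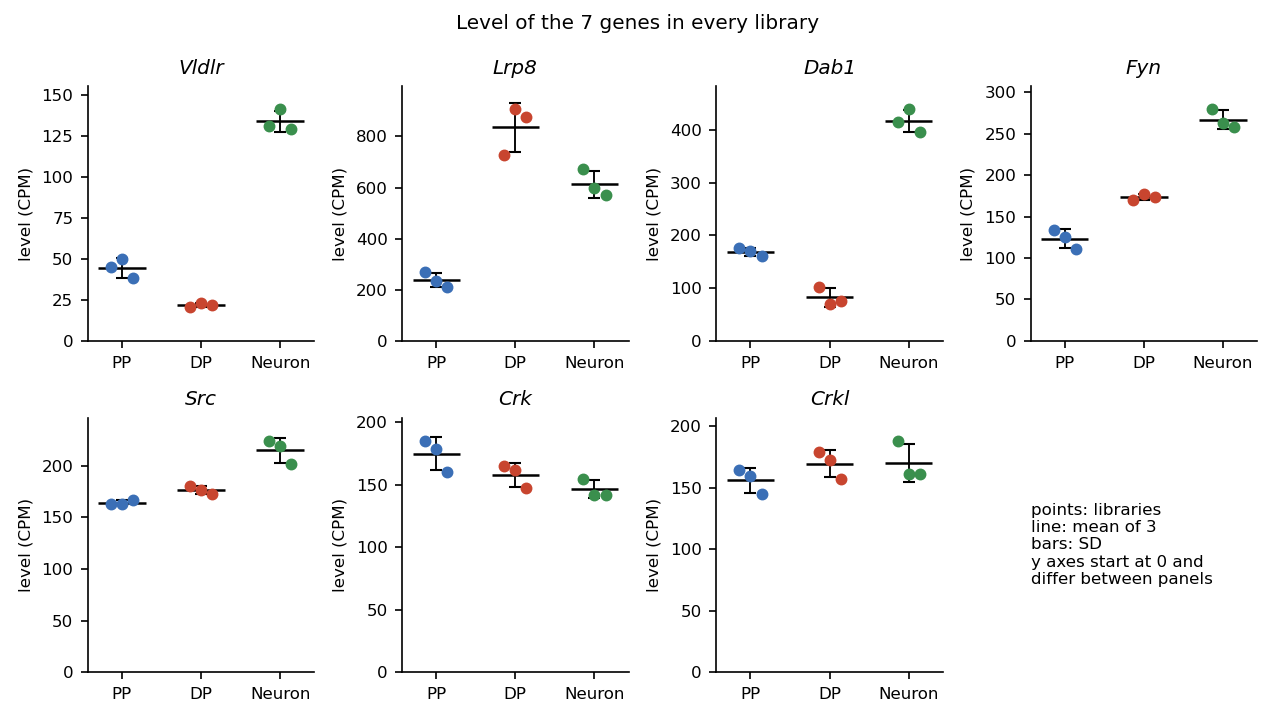
Level of each of the 7 genes in CPM (y axis, starting at 0, its range differing between panels) in the PP, DP and Neuron libraries (x axis, in lineage order). Points are libraries, lines means of 3 and bars the SD; Vldlr and Dab1 are lowest in DP, Lrp8 is highest there, and Crk and Crkl stay between 142 and 188 CPM.

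Of the kinases, Fyn rose at both steps and Src at the second. Fyn stood at 134, 125 and 111 CPM in PP, at 170, 178 and 173 CPM in DP and at 280, 263 and 258 CPM in Neuron libraries, with no overlap between groups. In DP it was 1.41-fold higher than in PP (log2 0.49, SE 0.07, adjusted p = 0.000293), and in Neuron 1.54-fold higher than in DP (log2 0.62, SE 0.07, adjusted p = 1.50e-05) and 2.17-fold higher than in PP (log2 1.12, SE 0.08, adjusted p = 6.38e-08). Src stood at 163, 163 and 167.1 CPM in PP, at 181, 176 and 172 CPM in DP and at 224.2, 219 and 201 CPM in Neuron libraries. The DP libraries of Src all lay above the PP libraries, but by little. The log2 fold change of DP against PP was 0.10 with a 95% interval of -0.03 to 0.24 (adjusted p = 0.206) and did not pass the threshold of 0.05. In Neuron, Src was 1.22-fold higher than in DP (log2 0.28, SE 0.06, adjusted p = 0.00151) and 1.31-fold higher than in PP (log2 0.39, SE 0.06, adjusted p = 0.00012). Changes as small as these depend on the scaling. The TMM factors were 0.87 to 0.91 in Neuron, 1.02 to 1.04 in DP and 1.09 to 1.12 in PP libraries, and a lower factor gives a higher CPM.

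The adaptors that dock on phosphorylated Dab1 changed little. Crk stood at 185, 179 and 160 CPM in PP, at 165, 162 and 147 CPM in DP and at 154.7, 142 and 142 CPM in Neuron libraries. Neighbouring groups overlapped, while every Neuron library lay below every PP library. In Neuron, Crk was 1.19-fold lower than in PP (log2 -0.26, SE 0.08, adjusted p = 0.00879). Neither step passed alone: the log2 fold change was -0.14 for DP against PP (95% interval -0.31 to 0.02, adjusted p = 0.151) and -0.11 for Neuron against DP (interval -0.28 to 0.05, adjusted p = 0.21). A further fit took libraries of consecutive numbers as a block, though no label ties these numbers to replicates. With this block the DP against PP value of Crk was -0.14 with an adjusted p = 0.0328 and so passed. Crkl stood at 164, 159 and 145 CPM in PP, at 179, 172 and 157.3 CPM in DP and at 188, 161 and 161 CPM in Neuron libraries, and all groups overlapped. Its log2 fold change was 0.12 for DP against PP (interval -0.06 to 0.30, adjusted p = 0.282), 0.0048 for Neuron against DP (interval -0.18 to 0.19, adjusted p = 0.963) and 0.12 for Neuron against PP (interval -0.06 to 0.31, adjusted p = 0.195). Only the Neuron against PP value of Crkl passed with the block of consecutive library numbers, at 0.12 with an adjusted p = 0.0497. With the TMM scaling used, the 95% intervals of Crk and Crkl in single steps lay within 0.31 of 0 on the log2 scale. They take in the spread between libraries and not the uncertainty of the scaling.

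In DP against PP, 2 of the 7 genes were called higher (Lrp8, Fyn), 2 lower (Vldlr, Dab1) and 3 not, where 41.4% of all 18627 features tested were called, 21.3% higher and 20.2% lower. In Neuron against DP, 4 were called higher, 1 lower and 2 not, where 67.3% of all features were called, 33.1% higher and 34.2% lower. In Neuron against PP, 5 were called higher, 1 lower and 1 not, where 75.3% of all features were called, 36.7% higher and 38.6% lower. With calls this common among all features, the number of the 7 that were called is read as close to the background in every comparison. The median log2 fold change of the 7 was 0.10, 0.28 and 1.12 in the 3 comparisons, beside -0.02, -0.04 and -0.04 over all features. The comparisons share libraries, so they are not independent of each other. The log2 fold changes of DP against PP in the authors' deposited table were -1.02 for Vldlr, 1.81 for Lrp8 and -1.03 for Dab1, and those of Neuron against DP were 2.64 for Vldlr, -0.42 for Lrp8 and 2.36 for Dab1. The sign was the same as in the values given here for all 7 genes at both steps of the authors' deposited table.

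**Figure D2:**
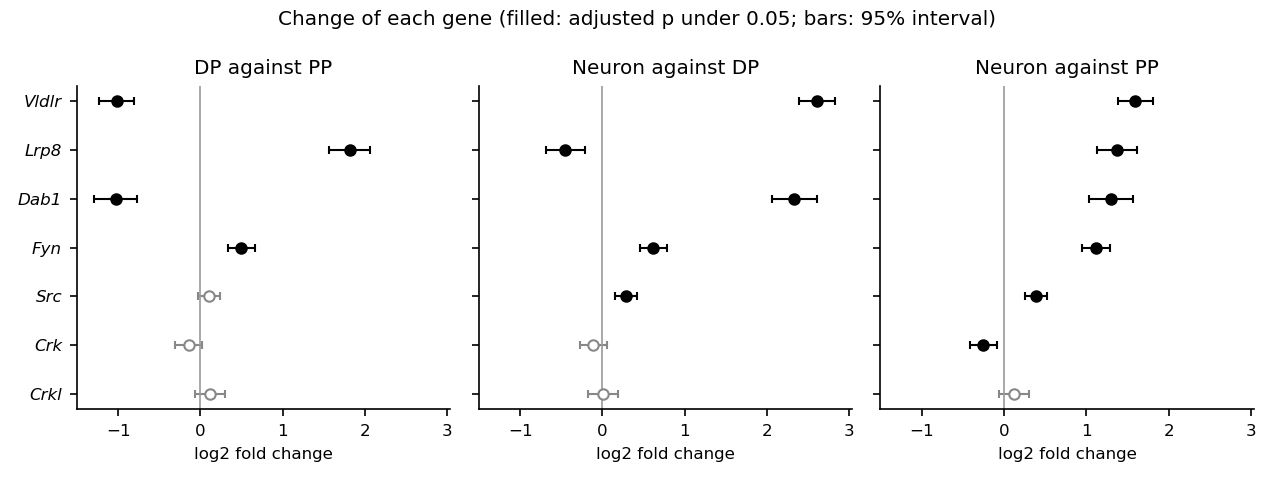
Log2 fold change (x axis) of each of the 7 genes (y axis) in DP against PP, Neuron against DP and Neuron against PP, with the 95% interval as a bar. Filled points have an adjusted p under 0.05; Vldlr and Dab1 lie near -1 in the first panel and above 2 in the second, where Lrp8 lies on the other side of 0.

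To compare genes with each other, CPM was divided by the exonic length in kilobases that the count tables give, which is the length of all annotated exons together and not that of the transcripts made. On this scale the order of levels changed between fractions. In PP it ran from Crkl (40.4 ± 2.64 CPM per kb, SD, n = 3), Src (37.6 ± 0.57) and Crk (37.0 ± 2.78) over Fyn (28.3 ± 2.66), Lrp8 (22.6 ± 2.72) and Dab1 (21.2 ± 0.96) to Vldlr (4.40 ± 0.59). Within each PP library Crkl lay above Crk and Fyn above Lrp8, whereas the place of Src beside Crkl and Crk, and that of Lrp8 beside Dab1, changed between libraries. In DP, Lrp8 came first at 79.6 ± 9.15 CPM per kb, above all others in every library, followed by Crkl (43.9 ± 2.90), Src (40.4 ± 0.96) and Fyn (39.8 ± 0.82), then Crk (33.4 ± 2.03), Dab1 (10.4 ± 2.19) and Vldlr (2.17 ± 0.13). Within the DP libraries, the order of Src and Fyn alone changed. In Neuron the order was Fyn (61.2 ± 2.59), Lrp8 (58.3 ± 4.99), Dab1 (52.4 ± 2.73), Src (49.1 ± 2.76), Crkl (44.1 ± 4.05), Crk (31.0 ± 1.52) and Vldlr (13.3 ± 0.64). This order was the same in each of the 3 libraries, although the ranges of neighbours among the first 5 overlapped. Vldlr was the lowest of the 7 in each fraction.

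**Figure D3:**
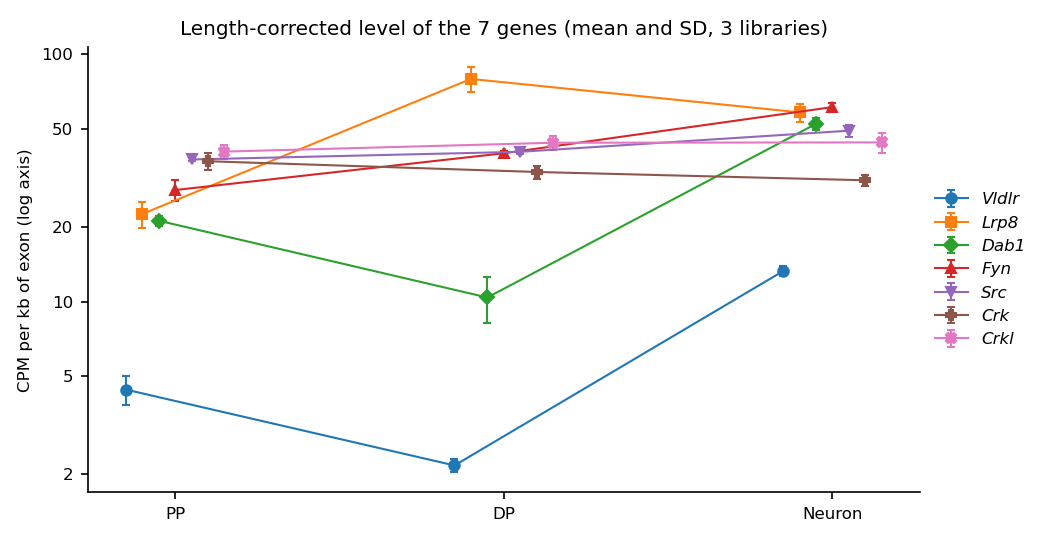
Mean level in CPM per kilobase of exon (y axis, log scale) of the 7 genes in PP, DP and Neuron (x axis), with the SD over 3 libraries as a bar; lines join the means of a gene and points are shifted sideways for clarity. Dab1 lies beside Lrp8 in PP at 21.2 and 22.6, far under it in DP at 10.4 and 79.6, and near it again in Neuron at 52.4 and 58.3.

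Ratios within a library do not depend on how libraries are scaled. Vldlr made up 2.88%, 2.61% and 2.52% of the receptor RNA per kb (Vldlr plus Lrp8) in DP libraries, against 14.9%, 18.3% and 15.8% in PP libraries. In Neuron libraries its share was 16.9%, 19.8% and 19.2%. The DP libraries were thus well below both other fractions, whose values overlapped. The log2 ratio of Vldlr to Lrp8 differed by -2.83 between DP and PP, by 3.06 between Neuron and DP and by 0.23 between Neuron and PP. With 3 libraries against 3, the two-sided exact permutation test cannot go below p = 0.1, which it gave for the first and second difference, and it gave p = 0.2 for the third (adjusted over 9 ratio tests 0.1125, 0.1125 and 0.2). The ratio of Fyn to Src was 0.945, 1.01 and 1.01 in DP libraries against 0.822, 0.772 and 0.665 in PP libraries, and 1.25, 1.21 and 1.29 in Neuron libraries. These groups did not overlap: the log2 ratio differed by 0.40 between DP and PP, by 0.34 between Neuron and DP and by 0.73 between Neuron and PP (exact permutation p = 0.1 and adjusted p = 0.1125 in each case). The ratio of Crk to Crkl was 0.754, 0.766 and 0.765 in DP libraries against 0.921, 0.917 and 0.904 in PP libraries, and 0.671, 0.721 and 0.720 in Neuron libraries. The libraries of a fraction lay close together, and the log2 ratio of Crk to Crkl did not overlap between any groups, with differences of -0.26 between DP and PP, -0.11 between Neuron and DP and -0.38 between Neuron and PP (exact permutation p = 0.1 and adjusted p = 0.1125 in each case).

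**Figure D4:**
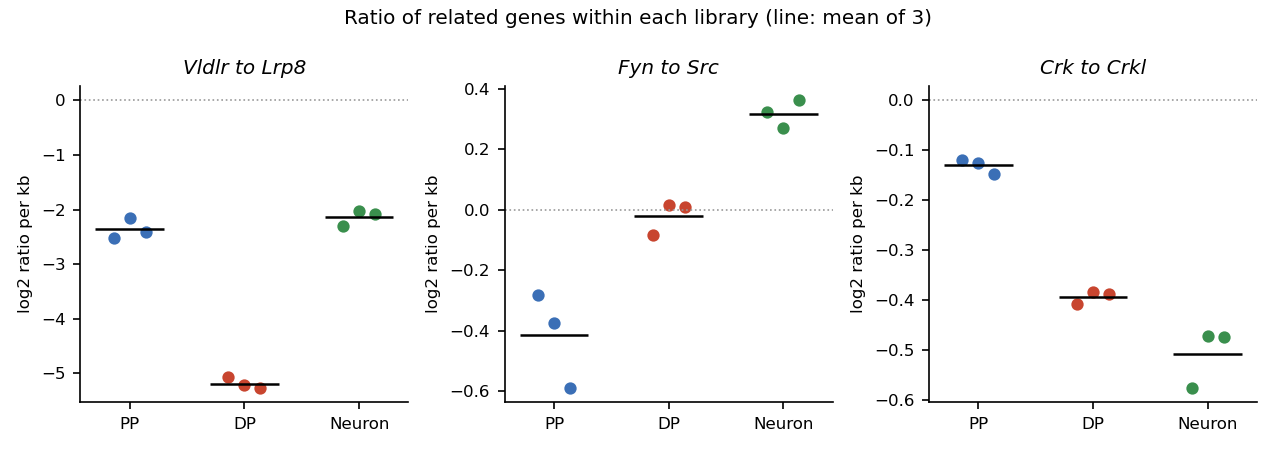
Log2 ratio per kilobase of exon (y axis, its range differing between panels) of Vldlr to Lrp8, Fyn to Src and Crk to Crkl in each library of PP, DP and Neuron (x axis); lines are means of 3 and the dotted line marks equal levels. Vldlr to Lrp8 is lowest in DP, near -5.19, against -2.36 in PP and -2.13 in Neuron, Fyn to Src is higher at each step and Crk to Crkl lower at each step.

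Dab1 was also set against the 2 receptors together, a ratio chosen after its values were seen and given as a description. Dab1 per kb was 0.130 ± 0.044 of the summed receptors in DP, against 0.791 ± 0.054 in PP, and 0.734 ± 0.050 in Neuron (SD, n = 3 each). The DP values were 0.181, 0.0984 and 0.112, with L223 the highest. The summed receptors were 81.8 ± 9.26 CPM per kb in DP against 27.0 ± 3.03 in PP, and 71.6 ± 4.96 in Neuron, so DP had the lowest Dab1 level beside a receptor sum above that of PP and overlapping that of Neuron.

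The genes whose profile over the 9 libraries was most like that of each of these 3 genes were sought by the root mean square difference of log2 CPM centred on each gene's mean, among 10415 features of at least 10 CPM on average. For Vldlr they were Sema4d (0.189), B3gat1 (0.198) and Mmp17 (0.200), and Dab1 ranked 11th of all features (0.234). For Dab1 they were Hs6st2 (0.140), Kif26a (0.143) and Pitpnm1 (0.159), and Vldlr ranked 17th. For Lrp8 they were Adcyap1r1 (0.060), Rcor2 (0.102) and Chn2 (0.107). Adcyap1r1, the receptor of the neuropeptide PACAP, stood at 260 ± 23.6 CPM in DP against 79.3 ± 9.60 CPM in PP, and at 191 ± 16.9 CPM in Neuron, thus highest in DP as Lrp8 was. Hs6st2, a heparan sulfate sulfotransferase, stood at 21.9 ± 4.33 CPM in DP against 46.4 ± 3.01 CPM in PP, and at 136 ± 7.83 CPM in Neuron. Sema4d, a membrane-bound semaphorin, stood at 17.7 ± 2.18 CPM in DP against 33.0 ± 1.49 CPM in PP, and at 114 ± 2.62 CPM in Neuron. The 9 points of each profile are libraries of 3 fractions and share their grouping, so the measure describes these fractions only.

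The other genes of the pathway were taken from 6 lists, in whose counts rose and fell mean called higher and called lower. Among all features, 21.3% were called higher and 20.2% lower in DP against PP, and 33.1% and 34.2% in Neuron against DP. Reelin itself, the ligand, stood at 5.48, 4.59 and 2.77 CPM in PP, at 28.9, 37.9 and 29.0 CPM in DP and at 850, 845 and 742 CPM in Neuron libraries. Its groups lay far apart: relative to PP, Reln was 7.54-fold higher in DP (log2 2.91, SE 0.20, adjusted p = 7.85e-07) and relative to DP it was 25.4-fold higher in Neuron (log2 4.67, SE 0.19, adjusted p = 1.61e-09). The sum of 8 Cajal-Retzius markers, of which Reln is 1, was 885 to 1006 CPM in Neuron libraries against 92.0 to 113 CPM in DP libraries. In PP libraries it was 6.70 to 12.6 CPM. Most of the Neuron sum was Reln itself, so there the sum is no separate measure of these cells. Taken singly in Neuron against DP, 6 of the 8 were called higher, 1 lower and 1 not. Ebf2 stood at 10.1, 6.97 and 9.53 CPM in DP against 4.03, 3.01 and 3.27 CPM in Neuron libraries. The part of Cajal-Retzius cells in the level of Reln was not tested. Of the 15 ligands and extracellular partners, all tested, 5 rose and 8 fell in DP against PP, and 11 rose and 3 fell in Neuron against DP. The list's median log2 fold change was -0.43 and 0.93, beside -0.02 and -0.04 over all features. Adamts3, a protease that cleaves Reelin, stood at 20.4 ± 3.06 CPM in DP against 55.7 ± 3.42 CPM in PP (log2 -1.45, adjusted p = 7.69e-07) and at 286 ± 7.93 CPM in Neuron (log2 3.81 against DP, adjusted p = 1.06e-10), thus lowest in DP as Vldlr and Dab1 were. Thbs1, thrombospondin 1, which can bind both receptors, was lower in DP than in PP (log2 -1.42), and Nrp1, a semaphorin co-receptor, was higher (log2 3.38). Clu, clusterin, another binding partner of both receptors, was lower in Neuron than in DP (log2 -1.59), as was the ephrin Efnb1 (log2 -1.18).

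Of 19 genes of the lipoprotein receptor family with its chaperones and turnover factors, all tested, 7 rose and 5 fell in DP against PP (median log2 0.11), and 8 rose and 10 fell in Neuron against DP (median -0.25). Lrp4, the agrin receptor of muscle, fell at both steps (log2 -1.45 and -4.22). Lrp5, a Wnt co-receptor, was lower in Neuron than in DP (log2 -1.75). Lrp11 rose at both steps (log2 1.97 and 1.39), Lrp12 was higher in DP than in PP (log2 1.04) and Lrp1, an endocytic receptor, was higher in Neuron than in DP (log2 1.32).

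Of 12 other Src family kinases and their regulators, 8 passed the filter on low counts. In DP against PP, 0 of the 8 were higher and 5 lower (median log2 -0.33), and in Neuron against DP 4 were higher and 3 lower (median 0.10). Yes1, which like Fyn and Src is made in many tissues, was lower at both steps (log2 -0.35 and -1.04), unlike Fyn. Pag1, which anchors the inhibitory kinase Csk at the membrane, was lower in DP than in PP (log2 -1.01) and higher in Neuron than in DP (log2 0.64). Matk, a Csk-related kinase, was higher in Neuron than in DP (log2 1.84).

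Of 8 other adaptors with a phosphotyrosine-binding domain like that of Dab1, 4 rose and 1 fell in DP against PP (median log2 0.33), and 4 rose and 3 fell in Neuron against DP (median 0.51). Gulp1, an engulfment adaptor, was lower in DP than in PP (log2 -1.45), while Numbl, a relative of the Notch inhibitor Numb, and Apba2, which binds the amyloid precursor protein, were higher (log2 1.38 and 1.22). In Neuron against DP, Apba1 and Apbb2, which also bind that protein, were higher (log2 4.03 and 1.47) and Numb was lower (log2 -1.17).

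The list of Dab1 effectors held 35 genes, all tested, and is a broad one that takes in partners of the receptors. Of these 35, 16 rose and 9 fell in DP against PP (median log2 0.19), and 25 rose and 5 fell in Neuron against DP (median 0.51). Pik3r3 and Pik3r1, regulatory subunits of phosphatidylinositol 3-kinase, were higher in DP than in PP (log2 1.69 and 1.49), and Rap1gap, which switches Rap1 off, was lower (log2 -0.54). Itga5, the fibronectin receptor subunit, fell at both steps (log2 -0.84 and -6.06). In Neuron against DP, Mapt (tau) and Dlg4 (PSD-95) were higher (log2 5.60 and 1.73) and Dock1, a Rac exchange factor that Crk binds, was lower (log2 -4.32).

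Of 11 genes of Dab1 turnover, all tested, 2 rose and 1 fell in DP against PP (median log2 -0.0093), and 3 rose and 2 fell in Neuron against DP (median 0.14). Socs7, a substrate adaptor of the Cul5 ligase that recruits Dab1, was higher at both steps (log2 0.21 and 0.80), as was the ubiquitin ligase Cblb (log2 0.44 and 1.12). Socs4 was lower at both steps (log2 -0.24 and -1.23) and Socs6 lower in Neuron than in DP (log2 -0.81). These counts and medians describe the lists and were not tested as sets. For every list, the counts stand beside the shares of all features called, and the medians beside -0.02 and -0.04 over all features.

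**Figure D5:**
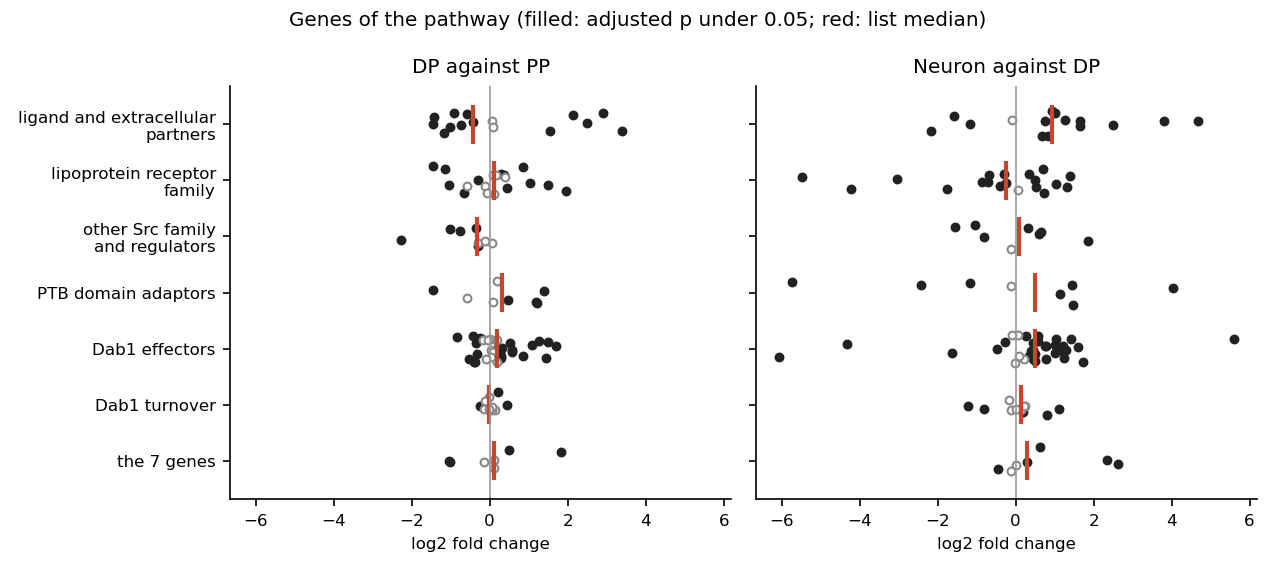
Log2 fold change (x axis) of every tested gene of the 6 lists and of the 7 genes (rows), with DP against PP on the left and Neuron against DP on the right. Filled points have an adjusted p under 0.05 and red bars are medians of a row, which lie between -0.43 and 0.33 in the first panel and between -0.25 and 0.93 in the second.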

How the data were processed

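RNA was measured by sequencing of poly-A RNA from 3 sorted fractions of mouse cortex, in 9 libraries that give 18 samples. Gene counts were made by the authors for each run and deposited as whole numbers per Ensembl release 67 gene, with an exonic length per gene, per the file headers. Among the tools listed in the submitters' processing notes are the aligners TopHat2 2.0.10 and Bowtie2 2.2.1, the counter featureCounts 1.4.4 and DESeq2 1.4.5, and the build there is mm9. The sources used here do not say whether counting was stranded. The log2 fold changes and adjusted p-values of the authors stand in their deposited comparison tables. The 24 normalised per-library columns of those tables were not used.

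The counts of both runs of a library were added. Count columns carry library numbers that the labels lack, and each column was assigned to a fraction but to no replicate number. The 7 genes and all lists were chosen with earlier results of these data known. Counts of 18627 features that passed edgeR's filter (18143 annotated genes and 484 unannotated transcripts) were scaled by TMM and tested with edgeR 4.0.16 in R 4.3.3 (quasi-likelihood test, group as the only term, all 9 libraries, Benjamini-Hochberg over all features, threshold 0.05). CPM are scaled by TMM. The design text calls the replicates biological, and each library is an embryo pool. The spread behind each p-value is that between libraries of a group, estimated over the 3 groups together and drawn by edgeR towards a trend over all features. It includes whatever libraries of consecutive numbers share. Libraries of consecutive numbers deviated together from their group means (correlation 0.13 to 0.34 in 9 pairs, against -0.32 to 0.011 in other pairs), so a fit with these numbers as a block was also made; the pairing comes from the headers alone. Named genes of each list are, at each step, at most 2 from each end of the log2 fold changes, among genes called with 10 CPM or more in the higher group; 1 gene that this rule names is not reported here. Alternatives were RLE scaling, DESeq2 1.42.0, other filters, each run alone, fits of 2 groups, the block, and leaving out libraries.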

Additional observations from a re-analysis of the deposited data

How the results depend on the processing

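Of the 21 log2 fold changes of the 7 genes, 18 kept their direction and their side of the threshold under all 18 alternatives, among them all 15 that passed. Every alternative scaled the libraries by TMM, by RLE or by the method of DESeq2. Scaling by library totals alone was not tried. With the block of consecutive library numbers, Crk in DP against PP was -0.14 (adjusted p = 0.0328). Crkl in Neuron against PP was then 0.12 (adjusted p = 0.0497). Both thus passed the threshold, and the block changed no other call of the 7 genes. The value of Crkl in Neuron against DP, near 0 as reported, changed sign with no filter on low counts (-0.0092), with at least 10 CPM in 3 libraries (-0.016), with single-read runs alone (-0.0062), with the 2 groups alone (-0.011) and without L222, L223 and L224 together (-0.025); leaving out 1 library at a time gave -0.072 to 0.052. The filter of at least 10 CPM in 3 libraries tests fewer features, and so lowered the calls over all features to 4498 higher and 4434 lower in Neuron against PP and 4111 lower in Neuron against DP, against 6839, 7196 and 6378. The runs differed most for Vldlr, whose single-read CPM was above its paired-end CPM by 4.72% to 29.7%. With 3 libraries a group, the ratio tests cannot reach the threshold, and changes within the intervals given for Crk, Crkl and Src are not resolved.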
